A study of Mus musculus with 56 samples.

Results

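Loss of Trem2 was examined in microglia of old female mice by comparing 7 libraries from homozygous knockout mice (labelled TREM2 -/-, here KO) with 7 from wild-type mice (TREM2 +/+, here WT), 14 of the 56 libraries of the series. The libraries were chosen by their titles alone. Old mice are given as 16 to 18 months of age, and young mice, used below only for comparison, as 2 months. Per the labels' protocols, mice were perfused with PBS, whole brains were dissociated, viable cells were sorted by flow cytometry, and Cd11b+ cells were collected as microglia and ACSA-2+ cells as astrocytes. No other agent or treatment is named in the labels. Each library has its own animal number, so the 7 libraries of a group are 7 mice. The knockout allele and the strain are not given in the labels. The genotype label covers both cell types and both ages of the series, so Trem2 loss is not limited by it to old microglia. From what age and in which cells Trem2 is missing is not stated. Cd11b is carried by other myeloid cells besides microglia.

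Trem2 is a receptor on microglia that binds lipids, lipoproteins and cell debris and signals through the adaptor protein Tyrobp (DAP12) and the kinase Syk. In ageing and around amyloid plaques, part of the microglia leave the homeostatic state and take up a disease-associated state. Its first stage (among others Apoe, Tyrobp and B2m) is described as independent of Trem2, and its second stage (among others Lpl, Cst7, Clec7a and Spp1) as dependent on it.

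Total counts ran from 298688 to 711791 in old WT libraries (median 548888) and from 200710 to 808524 in old KO libraries (median 606699), the lowest being KO animal 8. The RNA integrity number was 8.7 to 10 in WT and 9 to 10 in KO. All 10 microglia markers in the table had counts in both groups, and their summed level was 18338 to 20948 CPM in WT and 20416 to 24456 CPM in KO, where CPM is the count relative to a library size scaled by the trimmed mean of M-values (TMM). The 14 markers of border macrophages, the macrophages of meninges and perivascular spaces, also all had counts. They summed to 1301 to 1944 CPM in WT and 1916 to 2523 CPM in KO, so only WT animal 3 reached the KO range. Neutrophil markers stood apart in WT animal 23 (3924 CPM) and KO animal 28 (5560 CPM), against 420 to 2507 CPM in the other 12 libraries. In such bulk samples, fewer cells of a type and less RNA per cell cannot be told apart.

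Trem2 itself (ENSMUSG00000023992.14, chr17:48346401-48354147, plus strand, GRCm38, a protein-coding gene) was the first gene examined. In the 7 old WT libraries it was at 335 CPM at the lowest, 440 CPM at the median and 638 CPM at the highest, and in the 7 old KO libraries at 76.7, 113 and 169 CPM. The groups did not overlap, and the KO mean was 24.7% of the WT mean (log2 fold change −2.01 ± 0.16 SE, edgeR quasi-likelihood test, Benjamini-Hochberg adjusted p = 1.1e-08). Counts of 22 to 107 therefore remained in each KO library. A 3′ tag can lie outside the deleted part of a gene, so these counts do not show whether any receptor was made. The neighbouring genes of the same family were low or not called. Treml1 averaged 3.99 ± 3.24 CPM in WT and 3.63 ± 2.37 CPM in KO (SD, n = 7), too low to be tested. Treml2 averaged 65.1 and 57.5 CPM (log2 −0.22 ± 0.19). Within 5 Mb of Trem2, 27 genes were tested and 0 were called at an adjusted p under 0.05 by edgeR, and 1 had an unadjusted p under 0.05. That is 3.70% of them, against 4.10% of all genes tested.

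Across the transcriptome few genes passed the test. Of 6410 genes tested, 12 (0.187%) had an adjusted p under 0.05, of which 10 (0.156%) were lower in KO and 2 (0.0312%) were higher, and 263 had an unadjusted p under 0.05. The median log2 fold change over all genes tested was 0.0029, and 17 genes differed by more than 1 on the log2 scale. In 13 genes (0.203%) the CPM of the 2 groups did not overlap, with 9 lower in KO (0.14%) and 4 higher (0.0624%). The 9 were Spp1, Lpl, Trem2, Clec7a, Axl, St8sia6, Tns1, Cd52 and Soat1, and the 4 were Cd163, F13a1, Rab27a and Sf3b2. Rab27a, a vesicle transport GTPase, averaged 48.0 and 71.1 CPM in WT and KO (log2 0.51 ± 0.17, adjusted p = 0.779), and the splicing factor Sf3b2 averaged 123 and 158 CPM (0.33 ± 0.13, adjusted p = 0.999). Both were chosen after their values were seen. Without the 4 libraries with the lowest depth or the highest neutrophil markers of their group (WT animals 3 and 23, KO animals 8 and 28), an alternative added after the data were seen, 8 genes were called, 0 of them higher. Each set of 4 consecutive animal numbers holds 1 old WT and 1 old KO microglia library. With these animal number sets in the model more genes were called, the 12 among them. Calls below are from the fit without the sets unless stated.

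**Figure D1:**
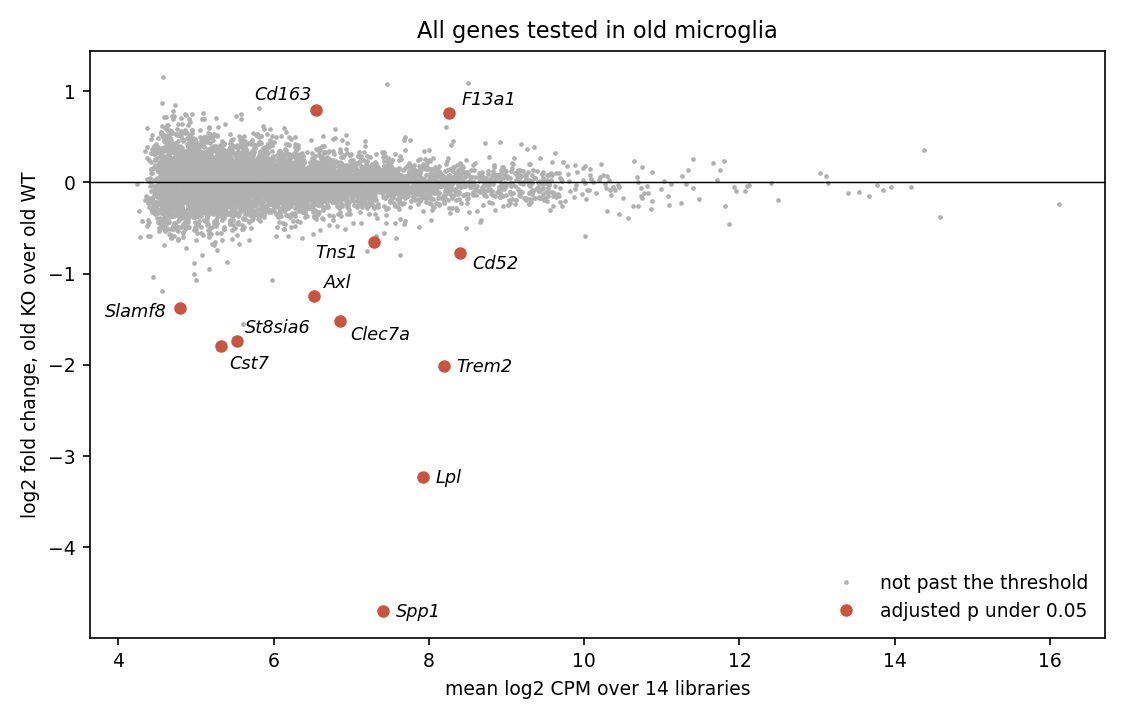
Log2 fold change of old KO over old WT microglia for each of the 6410 genes tested, against the mean log2 CPM over 14 libraries. The 12 genes past the threshold (red) are named, and Spp1, Lpl and Trem2 lie farthest from 0, with Cd163 and F13a1 the 2 above it.

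The 2 genes with the deepest fall encode secreted proteins. Spp1 (ENSMUSG00000029304.14, chr5:104435118-104441050, plus strand) encodes osteopontin, a secreted phosphoprotein that binds integrins. It was at 205 CPM at the lowest, 339 at the median and 502 at the highest in WT, and at 0, 11.1 and 18.4 CPM in KO. Every KO library lay far below every WT library, and the KO mean was 3.50% of the WT mean (log2 −4.70 ± 0.26, edgeR adjusted p = 6.7e-12). The library at 0 was that of KO animal 8, in which a count of 0 allows up to 15.4 CPM at its depth (3 counts, counting error only), a range that holds the values of 4 of the other 6 KO libraries. Lpl (ENSMUSG00000015568.16, chr8:68880491-68907448, plus strand) encodes lipoprotein lipase, which frees fatty acids from the triglycerides of lipoproteins. It was at 317, 421 and 557 CPM in WT and at 15.4, 46.1 and 75.4 CPM in KO (lowest, median, highest). The groups were again apart, with a KO mean of 10.3% of the WT mean (log2 −3.23 ± 0.19, edgeR adjusted p = 2.0e-11). Relative to the mean, the CPM of these 2 genes spread more over KO libraries than over WT libraries. The coefficient of variation of Spp1 was 35.1% in WT and 52.3% in KO, and that of Lpl 18.3% and 45.7%. These KO values rest on 0 to 11 counts of Spp1 and 3 to 37 counts of Lpl per library. Counting error is larger at such counts, so the wider spread is not read as a difference among mice.

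Besides Trem2, 2 receptor genes of phagocytosis were lower, Clec7a and Axl. Clec7a (ENSMUSG00000079293.11, chr6:129461591-129472779, minus strand, annotated as a polymorphic pseudogene in GENCODE M21) encodes Dectin-1, a lectin receptor for glucans. It was at 136, 169 and 216 CPM in WT and at 44.4, 55.3 and 87.0 CPM in KO (lowest, median, highest). No KO library reached the lowest WT library (log2 −1.52 ± 0.15, edgeR adjusted p = 4.9e-07). Axl (ENSMUSG00000002602.16, chr7:25757273-25788705, minus strand) encodes a receptor kinase that recognises apoptotic cells through Gas6. It was at 92.0, 120 and 154 CPM in WT and at 40.9, 47.9 and 63.7 CPM in KO. These ranges did not overlap either (log2 −1.25 ± 0.15, edgeR adjusted p = 2.8e-05). The other receptor kinase of its family tested, Mertk, had a log2 fold change of 0.09, and the ligand genes Gas6 and Pros1 had 0.26 and −0.03, none past the threshold.

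Surface and intracellular proteins of other kinds made up the remaining falls. St8sia6 (ENSMUSG00000003418.11, chr2:13651021-13794064, minus strand), a sialyltransferase, was at 44.3, 66.9 and 86.4 CPM in WT and 12.7, 18.3 and 30.7 CPM in KO (lowest, median, highest), without overlap (log2 −1.74 ± 0.22, edgeR adjusted p = 2.9e-05). Among the 13 tested genes of sialic acid metabolism and Siglec receptors it was the 1 called, and the median of the list was 0.046, or −0.17 with the summed border macrophage level as a covariate. Cst7 (ENSMUSG00000068129.5, chr2:150570415-150578944, plus strand) encodes cystatin F, an inhibitor of lysosomal cysteine proteases. It was at 32.2, 53.6 and 93.6 CPM in WT and at 5.03, 12.2 and 44.3 CPM in KO. The ranges overlapped through KO animal 12 at 44.3 CPM, while the next highest KO value was 14.1 CPM (log2 −1.79 ± 0.33, edgeR adjusted p = 0.0087). Cd52 (ENSMUSG00000000682.7, chr4:134082448-134095082, minus strand), a small glycoprotein anchored in leukocyte membranes, was at 352, 393 and 505 CPM in WT and at 156, 251 and 323 CPM in KO, without overlap (log2 −0.77 ± 0.15, edgeR adjusted p = 0.015). The actin- and integrin-linking gene Tns1 (ENSMUSG00000055322.15, chr1:73910231-74124449, minus strand) was at 162, 189 and 205 CPM in WT against 97.8, 122 and 129 CPM in KO (log2 −0.65 ± 0.11, edgeR adjusted p = 0.0053). Slamf8 (ENSMUSG00000053318.7, chr1:172581758-172590568, minus strand), a myeloid receptor of the SLAM family, was at 21.6, 33.5 and 54.0 CPM in WT and 8.08, 15.1 and 22.2 CPM in KO, with 6 of 7 KO libraries below the lowest WT library (log2 −1.38 ± 0.28, edgeR adjusted p = 0.026). Slamf8 rests on 3 to 14 counts per KO library and was called in 5 of 14 fits that left out 1 library, with adjusted p from 0.0078 to 0.12. Cd52 was called in 11 of these 14 fits, and lost without WT animal 11, WT animal 15 or KO animal 16. Cst7 was called in all 14 but not without the 4 libraries named above (log2 −1.44, adjusted p = 0.178).

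**Figure D2:**
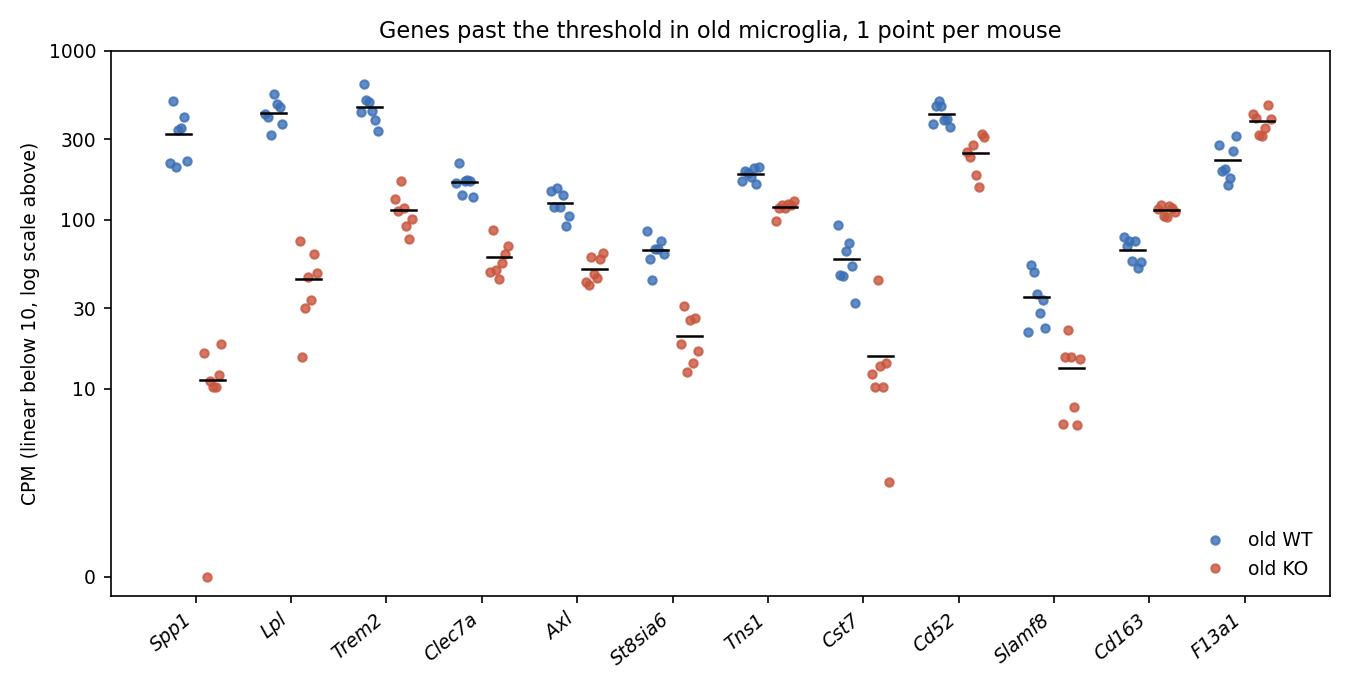
CPM of the 12 genes past the threshold in each old microglia library (blue WT, red KO, 1 point per mouse, bar at the mean of 7), on an axis that is linear below 10 CPM and logarithmic above. The groups are apart in 10 of the 12 genes and overlap in Cst7 and Slamf8, and 1 KO library holds no count of Spp1.

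Both genes that were higher in KO are markers of border macrophages. Cd163 (ENSMUSG00000008845.9, chr6:124304656-124330527, plus strand), the scavenger receptor for haemoglobin bound to haptoglobin, was at 51.9, 70.4 and 79.2 CPM in WT and at 104, 116 and 123 CPM in KO (lowest, median, highest). The groups were apart (log2 0.79 ± 0.13, edgeR adjusted p = 0.0035). The coefficient of variation over KO libraries was 6.32%. These values rest on 24 to 94 counts per KO library. Counting error is large at such counts, so the small spread is not read as likeness among mice. F13a1 (ENSMUSG00000039109.16, chr13:36867178-37050244, minus strand), the macrophage transglutaminase, was at 161, 200.3 and 312 CPM in WT and at 313, 394 and 476 CPM in KO. Its groups did not overlap but came within 1 CPM of each other (WT animal 27 and KO animal 16; log2 0.76 ± 0.15, edgeR adjusted p = 0.015). Of 12 border macrophage markers tested, these 2 were called and 11 had a positive log2 fold change, with a median of 0.45 against 0.0029 over all genes tested, or 0.024 with the summed level of the same markers as a covariate. Cd209f (0.77 ± 0.22), Cbr2 (0.54 ± 0.18), the chemokine gene Pf4 (0.45 ± 0.14) and the mannose receptor gene Mrc1 (0.44 ± 0.18) were not past the threshold, and Ms4a7 was at −0.11 ± 0.20. Siglec1 and Folr2 had too few counts to be tested. With the summed border macrophage level as a covariate, Cd163 was at 0.66 and F13a1 at 0.14, both not called (adjusted p = 0.998), although both genes are part of that sum. The sum itself nearly separates the genotypes, since only WT animal 3 reached the KO range, so this covariate and the genotype can hardly be told apart in any of the values that follow. Among the falls, Spp1, Lpl, Trem2 and St8sia6 were called with that covariate. Clec7a (−1.32, adjusted p = 0.051) and Axl (−1.30, adjusted p = 0.075) were not called with it, nor were Cst7 (−1.61), Cd52 (−0.71) and Tns1 (−0.58), each with an adjusted p = 0.998. Slamf8 was at −0.36 (adjusted p = 0.998). Without the 4 libraries named above, Cd163 was at 0.77 (adjusted p = 0.055) and F13a1 at 0.84 (adjusted p = 0.081), and F13a1 was called in 9 of 14 fits that left out 1 library. It was lost without WT animals 11, 15 or 19 or KO animals 4 or 24.

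Sequence upstream of the called genes was read from RefSeq (GRCm38.p6), in windows of 250 bases before the annotated start, for which 10 of the 12 genes had an entry. Lpl and Cd52 had none. The core bound by PU.1 and other ETS factors, GAGGAAG on either strand, was present in 4 of the 10 (Spp1, Trem2, Axl and F13a1) and in 10.6% of 32851 windows. PU.1 is the lineage factor of microglia and macrophages. These 4 windows are shown because they hold the motif found in more of the called genes than any other searched, on genes that fell and on 1 that rose. Where a gene had more than 1 window, the one nearest to its GENCODE start is given. Each is written 5′ to 3′ on the strand of the gene, with matches to any searched motif in capitals.
Spp1: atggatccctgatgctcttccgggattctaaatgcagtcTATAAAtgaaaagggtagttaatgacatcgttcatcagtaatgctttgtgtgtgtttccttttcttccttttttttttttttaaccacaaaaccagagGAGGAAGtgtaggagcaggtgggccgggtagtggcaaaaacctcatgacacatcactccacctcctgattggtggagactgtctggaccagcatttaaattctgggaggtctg
Trem2: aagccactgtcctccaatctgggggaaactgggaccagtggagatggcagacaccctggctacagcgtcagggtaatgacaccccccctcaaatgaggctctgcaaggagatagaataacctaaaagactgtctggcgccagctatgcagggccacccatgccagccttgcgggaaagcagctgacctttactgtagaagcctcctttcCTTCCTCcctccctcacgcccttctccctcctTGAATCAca
Axl: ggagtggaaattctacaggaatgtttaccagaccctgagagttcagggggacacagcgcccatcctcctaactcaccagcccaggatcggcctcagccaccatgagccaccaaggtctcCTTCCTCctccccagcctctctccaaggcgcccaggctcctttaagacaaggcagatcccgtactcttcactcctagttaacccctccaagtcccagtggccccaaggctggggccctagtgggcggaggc
F13a1: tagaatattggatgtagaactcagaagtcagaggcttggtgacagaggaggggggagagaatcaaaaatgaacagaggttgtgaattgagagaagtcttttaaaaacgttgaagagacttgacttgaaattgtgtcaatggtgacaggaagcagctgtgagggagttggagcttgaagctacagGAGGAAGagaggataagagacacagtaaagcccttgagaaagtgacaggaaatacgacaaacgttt
The window of Spp1 is chr5:104434861-104435110, that of Trem2 chr17:48346151-48346400, that of Axl chr7:25788734-25788983 and that of F13a1 chr13:37050245-37050494. The PU.1 core lies 113, 41, 131 and 66 bases before the start in this order. In the Spp1 window TATAAA (12.4% of all windows) is also in capitals, and in the Trem2 window the AP-1 site TGANTCA (6.75% of all windows). The E-box CACGTG of MITF and TFEB, regulators of lysosomal genes, was found in Slamf8 alone (6.02% of all windows). The LXR element (DR4, a direct repeat of AGGTCA), the PPAR element (DR1, the same repeat with a shorter spacer) and the NF-kB site were found in 0 of the 10, and in 0.0152%, 0.0335% and 0.356% of all windows. No motif overlapped another in these windows. A match is a run of letters and not a measured binding site.

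The lists of microglial states were described by counts, since they were chosen with results of these data known. Of 28 second-stage genes 24 were tested, 7 were called lower (Spp1, Lpl, Trem2, Clec7a, Axl, Cst7 and Cd52), 0 were called higher, and 23 had a negative log2 fold change. Trem2 is the knocked-out gene itself, so its place in these counts follows from the genotype and adds no support. Over all 6410 genes tested 0.156% were called lower and 49.4% were negative. The median was −0.32, against 0.0029 over all genes tested. Next in size were Itgax, the integrin CD11c (−1.19 ± 0.30, adjusted p = 0.190), and the growth factor gene Csf1 (−1.07 ± 0.25, adjusted p = 0.127), both not past the threshold. With the animal number sets in the model, Csf1 and Cd63 were past it. The tetraspanin genes Cd63 (−0.59 ± 0.17) and Cd9 (−0.31 ± 0.11) were below 0, while the lysosomal gene Cd68 (−0.12 ± 0.18), Igf1 (−0.13 ± 0.21) and the cathepsin gene Ctsl (−0.18 ± 0.11) were within 2 standard errors of 0. The list thus ran from −4.70 to 0.068 and held members near 0 beside the deepest falls among the called genes. The 4 members not tested were low. Gpnmb was at 0 to 28.7 CPM in WT and 0 to 8.15 CPM in KO, Fabp5 at 3.06 to 32.4 and 1.58 to 10.2 CPM, Ch25h at 0 to 36.0 and 0 to 12.1 CPM, and Lilrb4a at 0 to 8.37 and 0 to 4.04 CPM. All 4 overlapped between groups.

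First-stage and homeostatic genes held no call. With 0.187% of all genes tested called, 0 is the usual count in lists of these sizes. None of the 9 first-stage genes was called, all 9 had a negative log2 fold change, and the median was −0.17. Over all genes tested 49.4% were negative. These counts do not test whether first-stage genes depend on Trem2. Apoe, which encodes the main apolipoprotein of microglia and astrocytes, was at 1241, 1789 and 2220 CPM in WT and at 1005, 1272 and 1643 CPM in KO (lowest, median, highest). The 2 ranges overlapped widely, although all 7 KO libraries lay below the WT median (log2 −0.39 ± 0.13, adjusted p = 0.785). The ferritin gene Fth1 (−0.25 ± 0.12) and B2m, the light chain of MHC class I (−0.19 ± 0.13), were closer to 0. Of 28 homeostatic genes tested 0 were called, 24 were positive and the median was 0.19. Sall1, the transcription factor that marks microglia among macrophages, was at 357, 386 and 421 CPM in WT and 402, 470.0 and 543 CPM in KO. In 6 of 7 KO libraries it was above the highest WT library (0.27 ± 0.10, adjusted p = 0.999). Olfml3 (0.41 ± 0.13), the purinergic receptor gene P2ry12 (0.23 ± 0.12), Tmem119 (0.27 ± 0.14) and the fractalkine receptor gene Cx3cr1 (0.11 ± 0.11) were also positive and not past the threshold. The summed microglia markers, all of which are also in the homeostatic list, were higher in KO by their medians, 18958 CPM in WT and 21580 CPM in KO. Their part in the values of other genes was not tested.

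**Figure D3:**
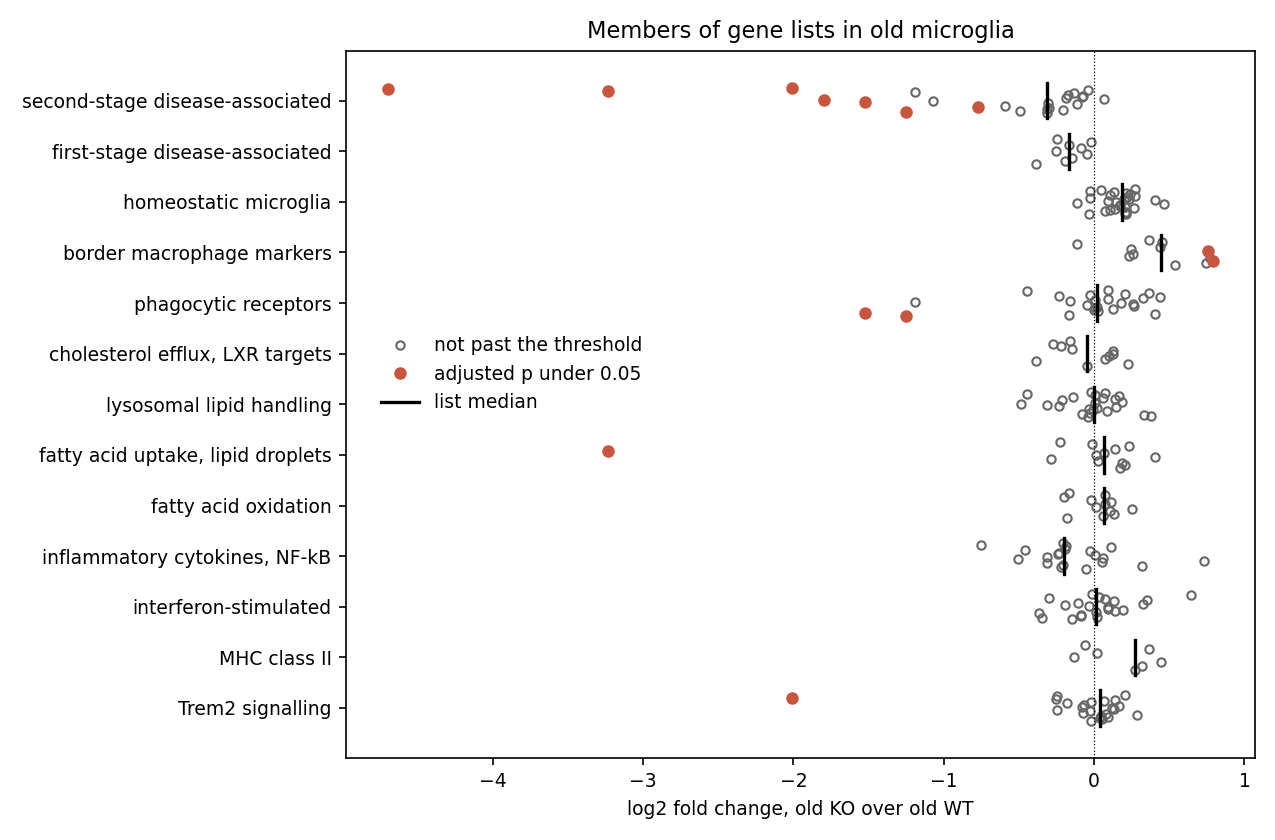
Log2 fold change of old KO over old WT microglia for the tested members of 13 gene lists (circles; filled red where adjusted p is under 0.05), with the list median as a black bar. Second-stage genes hold 7 filled points to the left of 0, with the knocked-out Trem2 among them, and border macrophage markers 2 to the right. The list medians range from −0.32 for second-stage genes to 0.45 for border macrophage markers.

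Trem2 signals through a chain of adaptor, kinase and phospholipase, whose other transcripts were not called. Over all genes tested 0.187% were called, so 0 further calls is the usual count in lists of these sizes. Of 23 signalling genes tested, Trem2 was the 1 called, and the median was 0.039. Tyrobp, the adaptor, averaged 2357 ± 519 CPM in WT and 1991 ± 582 CPM in KO (log2 −0.25 ± 0.16, adjusted p = 0.999). The kinase gene Syk (−0.26 ± 0.19), the phospholipase gene Plcg2 (−0.18 ± 0.16) and Inpp5d, a phosphatase that opposes the pathway (0.14), did not pass either. Of 25 phagocytic receptor genes tested, 2 were called lower (Clec7a and Axl) and the median was 0.016, or −0.29 with the border macrophage covariate. The toll-like receptor gene Tlr2 was at −0.44 ± 0.15 (adjusted p = 0.785), the Fc receptor genes Fcgr3 and Fcgr4 were at 0.007 and 0.016, and the scavenger receptor gene Cd36 was at 0.41 ± 0.26. Of 8 complement genes 0 were called. C1qa averaged 2565 ± 419 CPM in WT and 2534 ± 724 CPM in KO, and C1qb and C1qc were at 0.054 and −0.094 on the log2 scale.

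Lipid handling beyond Lpl showed no call, the usual count in lists of these sizes when 0.187% of all genes tested were called. Among 11 cholesterol efflux genes and targets of LXR, the nuclear receptor that senses oxysterols, 0 passed the threshold and the median was −0.048. Abca1, which loads cholesterol onto lipoproteins, was at 160, 293 and 433 CPM in WT and 188, 299.5 and 360 CPM in KO (lowest, median, highest), with overlap (log2 −0.048 ± 0.16). Abcg1, a transporter of the same kind, averaged 78.4 ± 23.3 CPM over WT mice and 96.3 ± 22.5 CPM over KO mice (0.23 ± 0.18, adjusted p = 0.999). In lysosomal lipid handling, 24 genes were tested, 0 were called, and 12 were positive and 12 negative. Soat1, the enzyme that turns free cholesterol into storable esters, was among them, at 132, 155 and 196 CPM in WT and 97.2, 111 and 131 CPM in KO. Its groups were just apart, yet it did not pass the test (−0.44 ± 0.12, adjusted p = 0.445). Nceh1, which cleaves those esters outside the lysosome, was at −0.49 ± 0.26, the lysosomal cholesterol carrier gene Npc2 at −0.21 ± 0.14 and the acid lipase gene Lipa at 0.15 ± 0.17. The droplet coat gene Plin2 was low, at 20.3 ± 9.33 and 21.5 ± 5.37 CPM, and was at −0.015 ± 0.27. Of 13 genes of fatty acid uptake and lipid droplets, Lpl was the 1 called, and 0 of 12 fatty acid oxidation genes and 0 of 9 cholesterol synthesis genes passed. The synthesis gene Cyp51 (−0.60 ± 0.28) was the lowest of the latter list, which tested 9 of 25 members because the rest had too few counts.

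Lysosomal, inflammatory and metabolic lists held 1 call, Cst7, among 14 lysosomal proteases and inhibitors. Over all genes tested 0.187% were called and 49.4% were negative, so 0 calls is the usual count in lists of these sizes. The cathepsin genes Ctsb (−0.14 ± 0.11) and Ctsd (−0.049 ± 0.12) were not past the threshold. Of 20 inflammatory genes 0 were called in the fit without animal number sets, 14 were negative and the median was −0.20. Tnf was at 90.0, 192 and 258 CPM in WT and 40.8, 102 and 164 CPM in KO (−0.75 ± 0.24, adjusted p = 0.684), and Nfkbia, the inhibitor of NF-kB, was at −0.46 ± 0.16. Tnf and Nfkbia were both called with the animal number sets in the model. Of 22 interferon-stimulated genes 0 were called, with a median of 0.016. MHC class I genes (13 tested, 9 negative, median −0.11) and class II genes (7 tested, 5 positive, median 0.27) also held 0 calls, and the class II gene H2-Ab1 was at 0.45 ± 0.18. Glycolysis genes were negative in 13 of 14 (median −0.14), among them the glucose transporter gene Slc2a1 (−0.68 ± 0.23, adjusted p = 0.804). Slc2a1 is also among the endothelial markers, which summed to 82.8 to 218 CPM in WT and 50.5 to 213 CPM in KO, and their part in this value was not tested. Oxidative phosphorylation genes were negative in 23 of 27 (median −0.11) and ribosomal protein genes in 17 of 20 (median −0.15), with 0 called in each. Immediate early genes, which also respond to cell dissociation, held 0 calls of 25, and the heat shock genes Hspa1a (1.07 ± 0.42) and Hspa1b (1.09 ± 0.46) varied widely among mice. With the animal number sets in the model, Hspa1a was called. Hspa1a ran from 21.1 to 274 CPM in WT and from 66.5 to 583 CPM in KO.

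Just outside the threshold stood 10 genes with an adjusted p of 0.127 to 0.445, among them Csf1, Itgax and Soat1 given above. With the animal number sets in the model, Csf1, Cadm1 and Mgl2 were past it. The lectin genes Mgl2 and Clec10a, which lie close together on chromosome 11 and are known from macrophages and dendritic cells, were higher. Mgl2 was at 61.2, 89.5 and 110 CPM in WT and 107, 131 and 147 CPM in KO (lowest, median, highest), and 6 of 7 KO libraries were above the highest WT library (0.59 ± 0.14, adjusted p = 0.152). Clec10a averaged 36.9 ± 14.5 and 66.1 ± 15.6 CPM (0.81 ± 0.23, adjusted p = 0.445). The 6 dendritic cell markers summed to 14.1 to 76.6 CPM in WT and 7.91 to 117 CPM in KO, and their part in these values was not tested. Lower were the adhesion gene Cadm1, from 271 ± 34.0 to 191 ± 29.3 CPM (−0.49 ± 0.12, adjusted p = 0.182), the cell cycle factor Tfdp2 (−1.01 ± 0.26), the late endosome GTPase Rab7b (−1.07 ± 0.28), the sulfotransferase gene Chst2 (−1.04 ± 0.28) and the ribosomal gene Rpl41 (−0.61 ± 0.17). All 7 KO libraries lay below the WT median in Csf1, Cadm1, Itgax, Tfdp2, Rab7b and Chst2. The 10 genes were picked by their small p in these same libraries, so such placement largely follows from the choice and adds no support.

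Whether the effect of Trem2 loss differed between ages was tested with all 28 microglia libraries, scaled together. The interaction called 2 of 7512 genes (0.0266%), Lpl and Spp1, both lower. At 2 months Lpl averaged 86.4 ± 27.4 CPM in WT and 53.7 ± 10.7 CPM in KO mice, and in old mice 437 ± 80.4 against 44.9 ± 20.3 CPM (SD, n = 7). Old KO libraries, at 15.4 to 75.7 CPM, overlapped those of young KO mice at 41.1 to 68.6 CPM. The difference between the effects was −2.51 ± 0.28 (edgeR adjusted p = 7.7e-07). Spp1 averaged 24.6, 10.7, 325 and 11.3 CPM in the same order, with a difference between the effects of −3.75 ± 0.56 (edgeR adjusted p = 2.5e-04). In young mice Spp1 rests on 9 to 19 counts per WT library and 2 to 19 per KO library. A fall as deep as in old mice could hardly show at such counts. No other gene passed the interaction test. St8sia6, Tns1 and Slamf8 also had a lower mean in KO than in WT at both ages. In young WT, young KO, old WT and old KO, St8sia6 averaged 20.5, 8.88, 66.8 and 20.8 CPM. Tns1 averaged 138, 100, 189 and 120 CPM, and Slamf8 17.1, 7.51, 35.5 and 13.5 CPM, in that order. St8sia6 and Slamf8 were too low in young mice to be tested there alone. Clec7a was lower in KO at both ages, 56.5 ± 4.34 against 23.2 ± 6.75 CPM in young and 169 ± 27.01 against 60.4 ± 14.8 CPM in old mice, and its interaction was −0.27 ± 0.23 (adjusted p = 0.998). Old KO microglia were thus at 44.8 to 87.4 CPM of Clec7a, around the young WT range of 52.8 to 64.6 CPM. Cd52 averaged 160.3 ± 45.2 against 132 ± 10.5 CPM in young WT and KO mice, and 427 ± 61.8 against 249.9 ± 62.8 CPM in old ones (interaction −0.51 ± 0.22, adjusted p = 0.998). Axl averaged 33.6, 25.5, 127 and 51.8 CPM (interaction −0.90 ± 0.31, adjusted p = 0.984), and Cst7 7.34, 2.76, 59.4 and 15.9 CPM, too low in young mice to set the effects side by side. Cd163 averaged 91.9 ± 15.4, 74.9 ± 30.04, 67.3 ± 10.9 and 115 ± 6.79 CPM, so the mean in KO was below that of WT in young and above it in old mice, a difference that did not pass (1.09 ± 0.25, adjusted p = 0.206). F13a1 averaged 222, 255, 228 and 385 CPM (0.56 ± 0.21, adjusted p = 0.998). Fitted alone, young microglia had 2 of 6897 genes called (0.029%), Trem2 and Clec7a, with log2 −1.26 ± 0.18 for Clec7a.

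**Figure D4:**
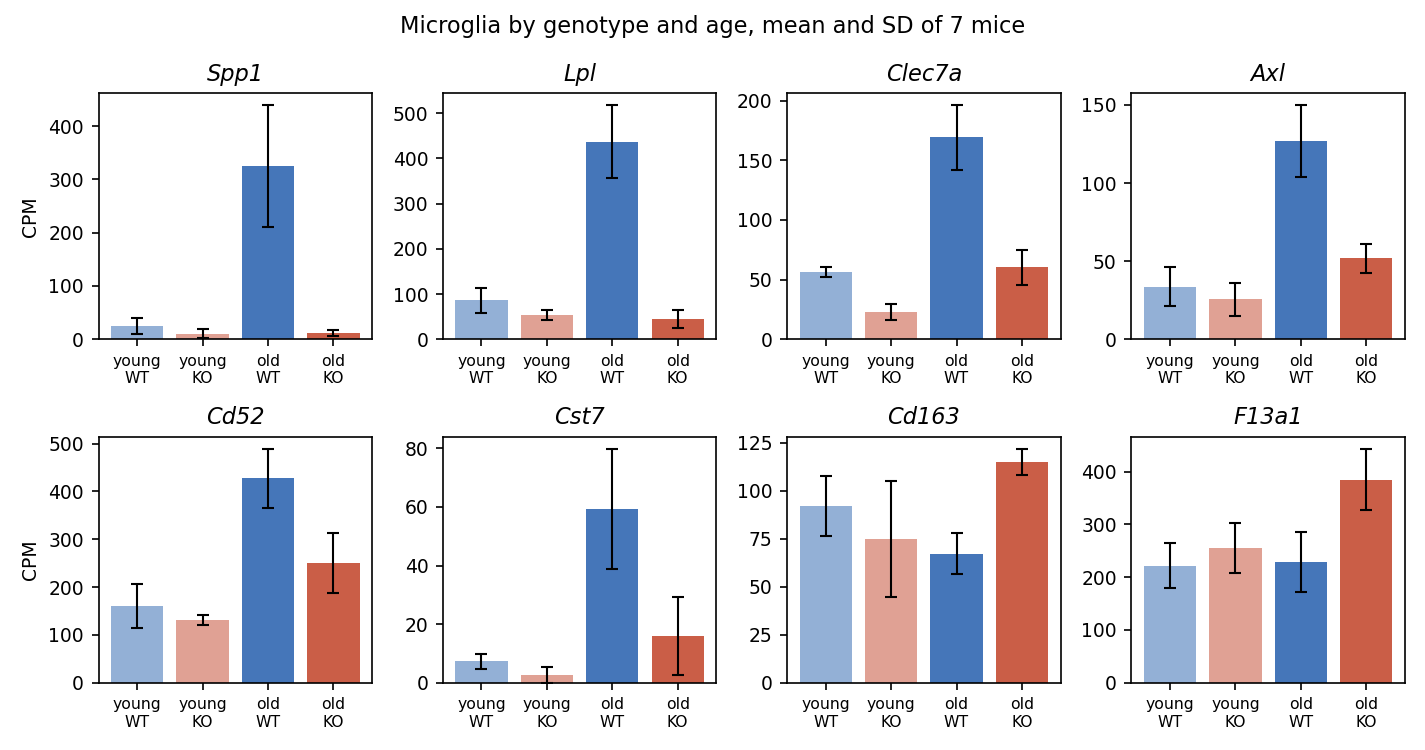
Mean CPM ± SD of 7 mice per genotype and age in microglia for 8 of the called genes, with bars starting at 0. Spp1 and Lpl in old KO (11.3 and 44.9 CPM) stand near young KO (10.7 and 53.7 CPM) and below young WT (24.6 and 86.4 CPM), Clec7a, Axl, Cd52 and Cst7 in old KO stand between young KO and old WT, and Cd163 and F13a1 have their highest mean in old KO.

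Astrocytes sorted from the same old mice served as the other comparison. Fitted alone, edgeR called 0 of 5917 genes (0%) between old KO and old WT astrocytes, 200 had an unadjusted p under 0.05, and DESeq2 called 0. The interaction of genotype and cell type, fitted over 28 libraries of old mice, called 4 of 8286 genes (0.0483%). Axl averaged 111 and 45.8 CPM in old WT and KO microglia and 102 ± 25.4 and 101 ± 19.1 CPM in old WT and KO astrocytes (scaled together; interaction −1.25 ± 0.24, edgeR adjusted p = 0.0125). Both cell types therefore held similar levels in WT mice, and the 2 effects differed. Spp1 was at 4.09 and 4.66 CPM in WT and KO astrocytes (interaction −4.80 ± 0.77, adjusted p = 0.0019), and Lpl at 7.70 and 5.71 CPM (−3.15 ± 0.65, adjusted p = 0.041). These astrocyte levels rest on 0 to 7 counts per library, and Lpl was called in 10 of 28 fits that left out 1 library. The fourth gene, the interferon-stimulated Ifi27l2a, averaged 64.4 and 50.9 CPM in WT and KO microglia and was at 0 to 4.62 CPM in WT and 10.5 to 22.8 CPM in KO astrocytes (−2.66 ± 0.47, adjusted p = 0.0073). In astrocytes it rests on 0 to 2 counts per WT library and 5 to 9 counts per KO library. The microglia effects on Cadm1 (−0.49 ± 0.12) and Soat1 (−0.44 ± 0.12) stood beside −0.059 ± 0.14 and 0.11 ± 0.17 in astrocytes, and neither interaction was called.

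**Figure D5:**
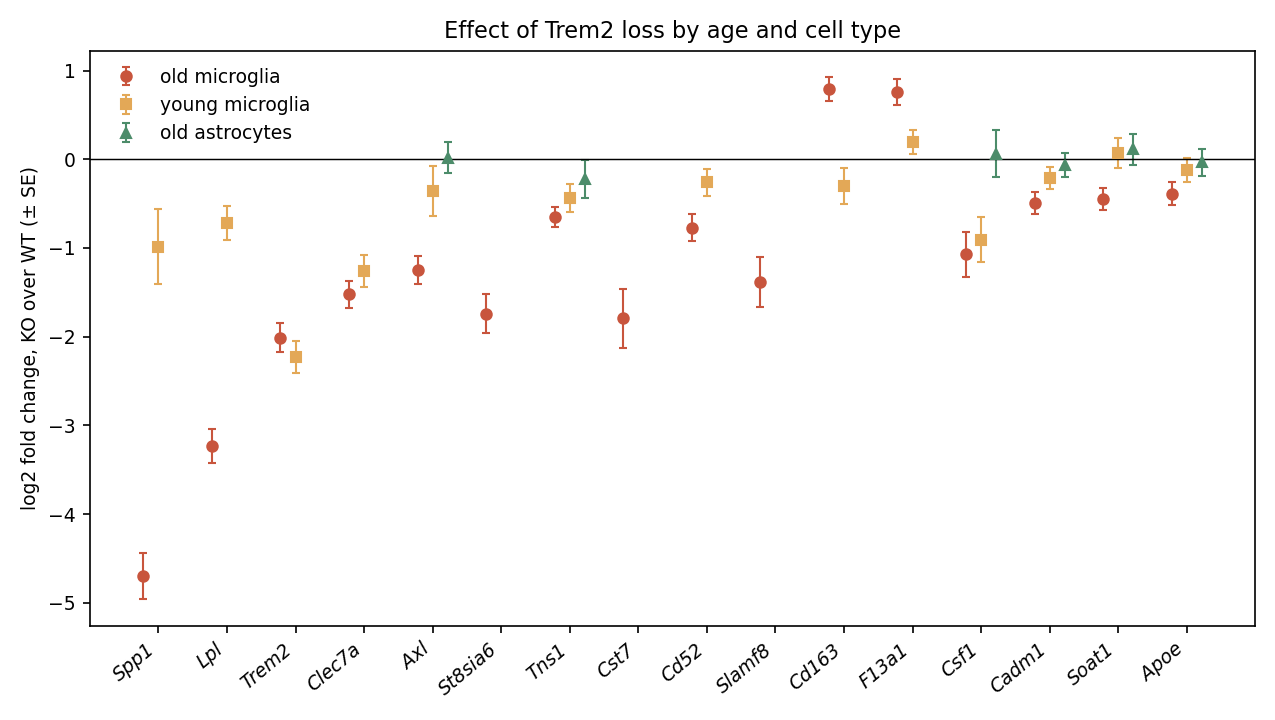
Log2 fold change of KO over WT with its standard error in old microglia (circles), young microglia (squares) and old astrocytes (triangles), each fitted alone, for the 12 genes called in old microglia and 4 others. Missing symbols are genes with too few counts in that group. Trem2 (−2.23 in young, −2.01 in old) and Clec7a (−1.26 and −1.52) lie below 0 at both ages, Spp1 and Lpl lie nearer to 0 in young microglia, and Axl is at 0.018 in old astrocytes.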

How the data were processed

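RNA of 14 old microglia libraries was measured by 3′ tag sequencing (QuantSeq with unique molecular identifiers, per the labels' protocols). The authors deposited 1 table of raw counts, whole numbers with no normalization, for 53801 gene identifiers. FastQC 0.11.5, STAR, MultiQC and R 3.4.3 with the build GRCm38.p6 are named in the submitters' processing notes. The counting program, annotation release, strand setting and collapsing of identifiers were not given in the sources used here, so counts are not read as molecules. Names and positions came from GENCODE M21, which matched 53706 identifiers.

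The 7 KO and 7 WT libraries were fitted alone with edgeR 4.0.16 in R 4.3.3 (TMM, filterByExpr with a minimum count of 10 and a minimum total of 15, quasi-likelihood F-test, Benjamini-Hochberg adjusted p under 0.05). Genotype by age and genotype by cell type interactions were fitted over 28 libraries each. P-values weigh the group difference against the spread between libraries, which holds counting error as well as differences among mice. Depth limits the precision of low genes. Each library was counted as 1 replicate because it has its own animal number within its group. In all 42 replicate pairs, counts differed by more than sampling noise (chi-square over its degrees of freedom 2.08 to 10.2). That does not by itself show that libraries are separate mice. Annotated genes that overlap called genes held 0 counts.

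Named genes were every gene past the threshold, the 10 with the smallest p outside it at a mean log2 CPM of at least 3, up to 4 members of any list that held 3 or more calls, and 42 followed whatever their p (53 in all). In the interactions it was every called gene. The genes followed, the lists and the tests were chosen with earlier results of these data known, and lists have no test here. A filter on low counts by group lets in genes that are high in 1 group, so list counts cover tested members only.

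Alternatives were RLE scaling, no filter, DESeq2 1.42.0, limma-voom 3.58.1 with quality weights, robust estimation, 28 libraries together, the RNA integrity number, sets of 4 consecutive animal numbers or the border macrophage level as a covariate, a fold threshold of 1.2, each library left out, and the animal as a block between cell types. The 14 old mice gave both cell types, per the labels' animal numbers. Over 5376 genes, the correlation of deviations within a mouse had a median of 0.155 (−0.118 to 0.301), against −0.0023 between mice. It was over 0.1 in 10 of 14 mice, so the pairing rests on the labels. The main fit of old microglia and both interaction fits were first tested on simulated counts. The fits of young microglia and old astrocytes and the alternatives were not.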

Additional observations from a re-analysis of the deposited data

Results flagged for a closer look

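In 140 groups of 7 libraries (53 named genes, marker sums and total counts), 14 held 1 library far from the other 6. For independent, normally distributed values the cutoff would give about 1 in 20 groups. These groups share the same libraries and include genes with low counts, so the 14 are not read as an excess. Among genes these were Tns1 in KO animal 4 (97.8 CPM, next 118), Cst7 in KO animal 12 (44.3, next 14.1) and Gpnmb in KO animal 4 (8.15, next 2.02). Rpl41 (256, next 164), Cd68 (450.4, next 230.3) and Tmem119 (957, next 636) stood out in KO animal 8, the library with the lowest depth. Tyrobp (3424, next 2473) and Npc2 (932, next 691) stood out in WT animal 7.

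Among summed markers of other cells, neutrophil markers stood apart in WT animal 23 (3924 CPM, next 1393) and KO animal 28 (5560, next 2507), and B cell markers in WT animal 23 (661, next 399.6). Red cell markers were at 75.1 CPM in WT animal 7 (next 28.4), astrocyte markers at 1357 CPM in WT animal 3 (next 854), and choroid plexus and ependymal markers at 338 CPM in KO animal 8 (next 142). In the choroid plexus and ependymal list Ttr was the 1 gene tested, and Folr1 was at 0 in both groups.

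The KO effect differed between old and young microglia in Lpl (−2.51 on the log2 scale) and Spp1 (−3.75), and between old microglia and old astrocytes in Spp1 (−4.80), Ifi27l2a (−2.66), Axl (−1.25) and Lpl (−3.15). Each difference passed the interaction test of edgeR at an adjusted p under 0.05.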

How the results depend on the processing

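Calls in old microglia numbered 12, and 12 with RLE scaling, limma-voom, robust estimation or the integrity number, 14 with DESeq2, 10 with 28 libraries together, 8 with the fold threshold and 9 to 13 without 1 library. All 12 were shared by the first 5 of these. Counts moved to 30 without the filter (7 higher), 20 with animal number sets (4 higher) and 4 with the border macrophage covariate (0 higher); with these markers taken out, 10 were called. Without the filter the age interaction had 25 calls, young microglia 58 (34 higher) and old astrocytes 5. Without 1 library the interactions had 2 to 3 calls by age and 3 to 4 by cell type. Spp1, Lpl, Trem2 and St8sia6 were called in all 26 alternatives.

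With the animal as a block, the cell type interaction had 4 calls, the same genes. For KO against WT the labels name no pairing. Each set of 4 consecutive animal numbers holds 1 old WT and 1 old KO microglia library, so the fit with number sets is in effect a paired one, and it gave the 20 calls above, which include the 12.

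Signs turned in genes that were never called. Leaving out 1 library gave −0.11 to 0.13 for Plin2, −0.15 to 0.078 for Abca1 and −0.11 to 0.014 for Ctsd. With number sets Plin2 was at 0.016. With the border macrophage covariate Treml2 was at 0.24, Cd68 at 0.058, Ctsd at 0.089 and Abcg1 at −0.13. In the same fit P2ry12 was at −3.9e-05, Siglech at −0.050, Mrc1 at −0.42 and Lyve1 at −0.70. Mrc1 and Lyve1 are part of the sum used as that covariate, so their values with it are not independent of it. Without the 4 doubted libraries H2-D1 was at 0.062. The cause of these shifts was not tested. Genes under about 10 counts per library are limited by depth.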

Other observations

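Some genes outside the lists of calls passed under other settings, and their values are given with no explanation. When animal number sets entered the model, the genes added to the 12 included Tnf (log2 −0.77, adjusted p = 0.0013), Csf1 (−1.07, 0.0013), Hspa1a (1.09, 0.0035), Nfkbia (−0.46, 0.0045), the tetraspanin gene Cd63 (−0.60, 0.0072), Cadm1 (−0.50, 0.0175) and the lectin gene Mgl2 (0.60, 0.030). DESeq2 added Cadm1 (−0.49, adjusted p = 0.032) and Csf1 (−1.08, 0.039).

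With no filter on low counts, added calls included the second-stage gene Gpnmb (−2.57, adjusted p = 0.037), the elastase gene Mmp12 (−1.56, 0.037), the fibronectin gene Fn1 (−1.25, 0.037) and the collagen cross-linking gene Lox (−3.99, 0.0041), all lower in KO. Retnla, a gene of alternatively activated macrophages, was higher (1.70, 0.0019), as were the heat shock genes Hspa1a (1.07), Hspa1b (1.10) and Hsp90aa1 (0.61). These genes were chosen after their values were seen.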
